A study of Mus musculus with 11 samples.

Results

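Sertoli cells nurse germ cells and secrete much of the fluid and protein of the seminiferous tubule, and genes for such secreted or Sertoli-specific products were examined here in 3 regions of the mouse testis. The set holds 9 genes, chosen by name: Trf (transferrin), Clu (clusterin), Cp (ceruloplasmin), Shbg (sex hormone-binding globulin), the cystatin genes Cst9 and Cst12, and Tsx, Aard and Mro, which are listed as specific to Sertoli cells. Members were taken as the probe sets annotated to that gene alone. This gave 8 of the 9 genes, with 18 of the 45101 probe sets of the array, against 18194 genes in the table with such a probe set. Trf was left out, since its probe set is annotated to a second gene as well. Where a gene had several probe sets, the one with the highest mean log2 signal is called its leading probe set.

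All arrays came from 7-week-old W/Wv mice, Kit mutants whose testes hold very few germ cells, and there was no wild-type or untreated group. The rete testis (RT, 3 arrays), the Sertoli valve (SV, 4 arrays) and the convoluted seminiferous tubules (ST, 4 arrays) were cut apart under a dissecting microscope after trypan blue had been injected through the efferent ducts. SV is the last stretch of the tubule, lined by a specialised Sertoli cell epithelium, and opens into the epithelial channels of the RT. Each array was hybridised with RNA from a pool of 20 testes, so a replicate is a pool and not an animal. According to the methods, SV pieces are likely to hold some cells of the adjoining RT.

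Blood-borne iron and copper do not pass freely between the tight junctions of Sertoli cells. Transferrin and ceruloplasmin, which carry iron and copper, and the androgen carrier SHBG are therefore classical products of the Sertoli cell, while clusterin is a secreted chaperone and one of its most abundant proteins. Many cystatins are inhibitors of cysteine proteases, and CST9 (testatin) and CST12 belong to this family by sequence. Whether CST9 and CST12 inhibit proteases was not examined. Tsx lies beside the X inactivation centre and is transcribed in the testis, Aard encodes a small protein rich in alanine and arginine, and Mro (maestro) was described from the developing male gonad.

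The promoter sequences of 5 members are shown. Of these genes 4 were lower in RT and the fifth, Cp, was higher there. The promoters of Aard and Mro, which were also lower in RT, are not shown. They are RefSeq sequences of GRCm38.p6 that run from 250 bases before to 50 bases after the start of the gene, written 5′ to 3′ on the strand of the gene, with matches to the searched motifs in capitals. Of the 2 starts given for Cp, the downstream one is shown.
Cst9, chr2:148834897-148835196, plus strand: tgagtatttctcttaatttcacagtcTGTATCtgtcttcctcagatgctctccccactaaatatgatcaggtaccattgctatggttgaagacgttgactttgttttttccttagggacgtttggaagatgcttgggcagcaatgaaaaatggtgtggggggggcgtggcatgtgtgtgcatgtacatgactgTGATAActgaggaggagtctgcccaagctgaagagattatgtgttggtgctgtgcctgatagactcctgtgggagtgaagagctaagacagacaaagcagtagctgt
Cst12, chr2:148789115-148789414, plus strand: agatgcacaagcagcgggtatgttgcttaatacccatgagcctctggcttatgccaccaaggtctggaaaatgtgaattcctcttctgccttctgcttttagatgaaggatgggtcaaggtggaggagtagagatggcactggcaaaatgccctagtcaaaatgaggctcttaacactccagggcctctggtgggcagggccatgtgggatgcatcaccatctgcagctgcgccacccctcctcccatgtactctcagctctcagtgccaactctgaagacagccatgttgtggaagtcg
Tsx, chrX:103414217-103414516, plus strand: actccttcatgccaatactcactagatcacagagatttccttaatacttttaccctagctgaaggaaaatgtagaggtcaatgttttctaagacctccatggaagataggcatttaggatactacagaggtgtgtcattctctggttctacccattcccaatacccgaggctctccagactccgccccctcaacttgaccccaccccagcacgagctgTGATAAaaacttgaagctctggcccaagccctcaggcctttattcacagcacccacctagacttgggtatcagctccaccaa
Shbg, chr11:69617856-69618155, minus strand: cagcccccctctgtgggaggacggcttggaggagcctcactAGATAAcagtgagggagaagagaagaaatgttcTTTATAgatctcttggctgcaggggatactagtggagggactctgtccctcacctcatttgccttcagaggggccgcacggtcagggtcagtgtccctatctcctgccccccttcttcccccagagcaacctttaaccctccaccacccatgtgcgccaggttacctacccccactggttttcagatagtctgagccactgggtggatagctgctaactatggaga
Cp, chr3:19956999-19957298, plus strand: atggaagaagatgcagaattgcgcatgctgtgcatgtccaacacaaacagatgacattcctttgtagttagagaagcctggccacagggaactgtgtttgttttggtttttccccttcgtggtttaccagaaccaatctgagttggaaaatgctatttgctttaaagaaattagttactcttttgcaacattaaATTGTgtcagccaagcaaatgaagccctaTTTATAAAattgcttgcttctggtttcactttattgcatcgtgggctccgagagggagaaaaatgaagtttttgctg

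Motifs were searched on both strands by their letters. TGATAA, a form of the GATA site, lay at -57 to -52 from the start of Cst9 and at -32 to -27 from that of Tsx, and 9.05% of 32851 promoters of this length hold it. The other GATA form searched, AGATAA (11.2% of promoters), lay at -209 to -204 in Shbg. Further forms of the GATA site, such as TGATAG and AGATAG, were not searched and are not in capitals. The DMRT core TGTATC (7.30% of promoters) was found in Cst9 at -224 to -219. In Shbg the TATA box letters TATAAA (13.6% of promoters) lay on the minus strand at -176 to -171. In the downstream Cp promoter TATAAA lay on both strands at -27 to -20, and the SOX core ACAAT (31.0% of promoters) lay on the minus strand at -56 to -52. The upstream Cp promoter (chr3:19956804-19957103) held ACAAT at -190 to -186. Cst12 held none of the letters searched, which also included the extended SOX9 core ACAATGG (3.66% of promoters; it contains ACAAT), the NR5A1 site AAGGTCA (4.72%), the CREB core ACGTCA (7.51%) and the short CREB site TGACG (20.8%; its reverse complement lies within ACGTCA). No motif searched was common to Cst9, Cst12, Tsx and Shbg, the 4 genes shown here that were lower in RT.

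Across the arrays, marker genes separated the regions. Of 19 measured genes of a Sertoli cell identity list, 11 were lower in RT than in ST and 0 were higher (0 also at an unadjusted limma p under 0.05 and by the methods' t-test), with a median log2 fold change of -1.50. Of 12 rete testis epithelium markers 11 were higher in RT, with a median of 6.31. The Sertoli list holds genes that other testis cells also transcribe, such as Gata4 and Nr5a1, and Wt1, which is also on a mesothelium list. Sox9, a defining Sertoli transcription factor gene, had a log2 fold change of -0.28 in RT against ST (limma adjusted p = 0.372). Summed over the rete list, RT arrays had signals of 29784–42218, SV arrays 4860.3–10692 and ST arrays 983–1482. Over the Sertoli list the sums were 38541–47979 for RT, 66197–90691 for SV and 88921–105924 for ST. Efferent duct and epididymis markers were also higher in RT in 4 of 9 genes (sums of 3397–9289 for RT, 438–940.0 for SV and 209–257 for ST), endothelial markers were higher in 3 of 6 and peritubular myoid markers were lower in 3 of 6. Of 8 germ cell markers 3 were lower in RT than in ST (Dazl, -4.04, Ddx4, -3.50, and Tex101, -3.28) and 1 was higher (Gfra1, 4.34), and the same 3 were higher and Gfra1 lower in SV than in RT. The germ cell sums were 3313–3757 for RT, 1918–3087 for SV and 2121–4881 for ST. Gfra1 was the largest part of the RT sum, with mean signals of 2468 (RT), 511 (SV) and 133 (ST). Those of Dazl were 146 (RT), 964 (SV) and 2196 (ST), and those of Ddx4 were 55.6, 274 and 643. The part of these markers in the members' values was not tested. Higher in RT were also 1 of 8 macrophage, 1 of 5 mesothelium and 1 of 4 glia markers, and 0 of 5 Leydig cell markers were called in either direction (0 also at an unadjusted limma p under 0.05). In a piece of tissue, fewer Sertoli cells and less RNA of a gene per Sertoli cell cannot be told apart. The arrays fall into 2 sets, replicates 1 and 2 and replicates 3 and 4, which differed in the 18S rRNA signal (20675–32135 against 6064–12751) and in the 3′ to 5′ ratio of Actb (1.31–1.43 against 1.73–2.12). Both sets hold arrays of each region, so the main values are also given within a set, where replicates 3 and 4 have 1 RT array.

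In RT, 6 of the 8 measured members were lower than in ST (Shbg, Cst9, Cst12, Tsx, Aard and Mro), 1 was higher (Cp) and Clu changed by less than 2-fold. A call here is a limma adjusted p under 0.05 with over 2-fold. By that rule 5.48% of all 45101 probe sets were lower in RT and 10.2% were higher, and over the leading probe sets of all genes the shares were 7.34% and 12.5%. The median log2 fold change of the 8 members was -1.95, beside 0.13 for all probe sets and 0.08 for the leading probe sets of all genes. Fold changes are given without removing this shift. Median centring of each array lowered all values of RT against ST by 0.42, so that Cp became 2.58, Clu -0.89 and Tsx -3.83, and no call of a member in this comparison changed. The SV arrays were much closer to ST. In SV, 1 member (Cp) was higher than in ST (1.50% of all probe sets and 2.39% of leading ones were called higher) and 0 of 8 were lower (0.0665% and 0.0769%). At an unadjusted limma p under 0.05, 1 member (Tsx) was lower in SV (4.98% of all probe sets), and the methods' t-test gave 2 (Tsx and Cst9) at that threshold and 0 with over 2-fold. The median log2 fold change of the members in SV against ST was -0.26, beside 0.00 for all probe sets. Against RT, 5 members were higher in SV (2.95% of all probe sets and 4.39% of leading ones) and 1 was lower (4.99% and 6.41%), with a median of 1.69 beside -0.11. After adjustment of the methods' t-test, or with replicates 3 and 4 only, 0 members were called in SV against ST or in SV against RT. Read by their single arrays, 7 members were lower and 1 was higher in RT than in ST without overlap, against 13.6% and 20.1% of all probe sets. Between SV and ST, 1 member was higher and 0 were lower without overlap (4.64% and 2.81%), and between SV and RT 7 were higher and 1 was lower (10.1% and 15.4%). The 3 comparisons share arrays and are not independent of each other. In the F-test over the 3 regions 7 of the 8 members had an adjusted p under 0.05 at their leading probe set, against 21.3% of all probe sets. Clu was the exception (F-test adjusted p = 0.124), while its other probe sets gave 0.117, 0.0472 and 0.0339.

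**Figure D1:**
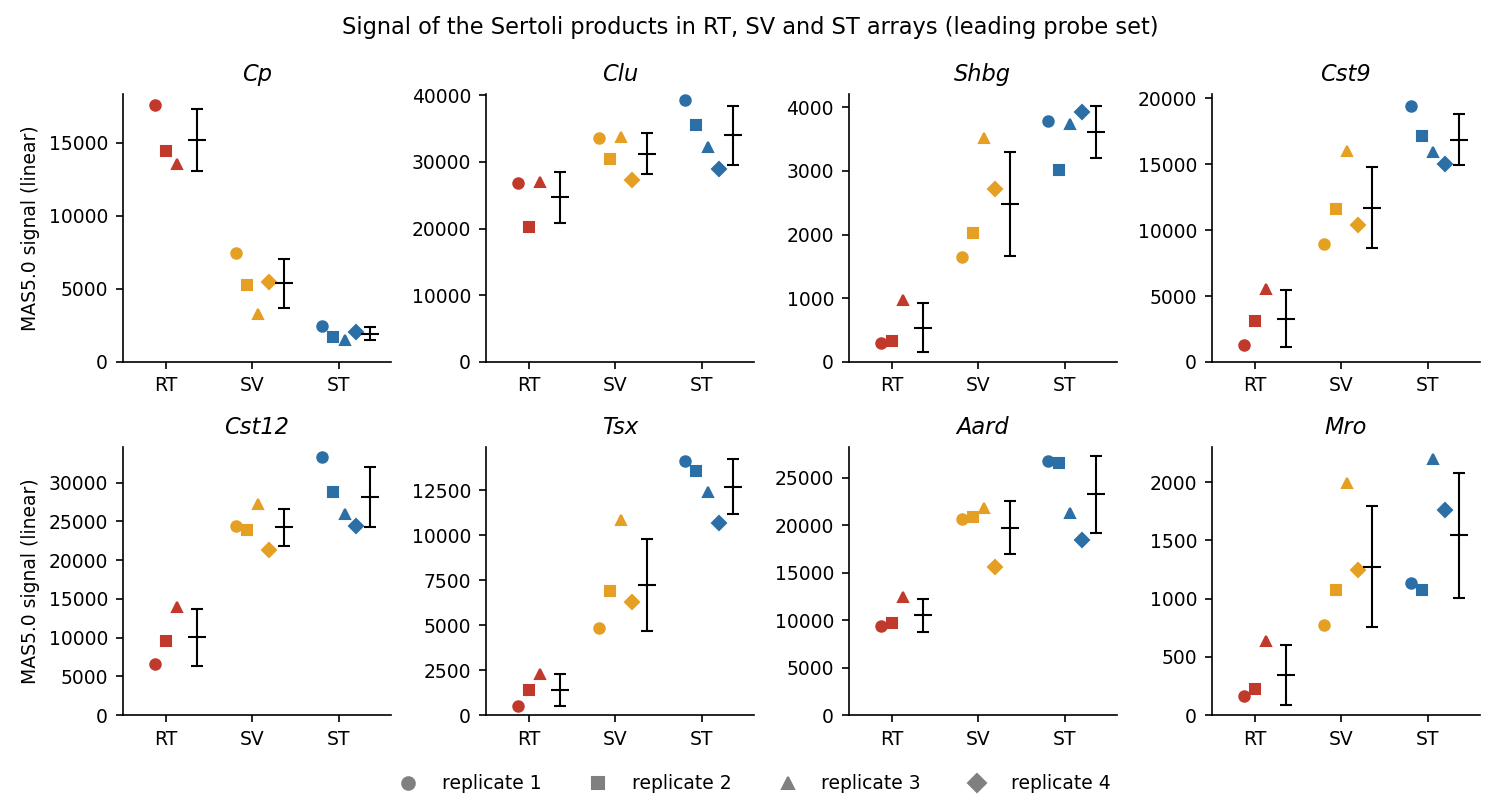
MAS5.0 signal (linear axis) of the leading probe set of the 8 members in each array of RT, SV and ST; each point is an array, its marker shape gives the replicate number, and the bars are mean ± SD (n = 3, 4 and 4). Cp had its highest signals in RT, Clu lay between 20298 and 39309 in all arrays, and the RT arrays of the other 6 genes were below all ST arrays.

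Cp, which encodes the copper-carrying ferroxidase ceruloplasmin, ran against the rest of the set. Its signal was 17586, 14474 and 13528 in RT replicates 1 to 3. SV replicates 1 to 4 had 7478, 5247, 3310.2 and 5481, and ST replicates 1 to 4 had 2488, 1686, 1474 and 2030.3. The 3 regions did not overlap, with RT highest, SV intermediate and ST lowest. Cp was 8.02-fold higher in RT than in ST (log2 fold change ± standard error 3.00 ± 0.24, adjusted p = 2.67e-06) and 2.74-fold higher in SV than in ST (1.46 ± 0.22, adjusted p = 0.00325). It was lower in SV than in RT by -1.55 ± 0.24 (log2, adjusted p = 0.00111). The RT value was 2.96 within replicates 1 and 2 and 2.97 within replicates 3 and 4. Cp thus went in the same direction as the rete list and opposite to the Sertoli identity list in RT, and whether other cells of RT supplied its signal was not tested. Of the 3 regions, ST had the lowest level of Cp, with signals that were still above the median signals of the ST arrays (65.78–85.12).

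Cp is measured by 8 probe sets of its own, and all 8 were higher in RT than in ST without overlap of the groups (20.1% of all probe sets did not overlap in this direction). Their log2 fold changes ran from 1.86 to 4.29, with a highest adjusted p of 2.02e-04. All 8 were also lower in SV than in RT, by -1.23 to -3.59. In SV against ST 4 of the 8 were called, at 1.46, 1.39, 1.24 and 1.73. The other 4 had log2 fold changes of 0.63 (adjusted p = 0.104), 1.17 (0.189), 0.47 (0.215) and 0.70 (0.382). The dimmest of the 8 had signals of 530.1, 646 and 483 in RT. Its SV signals were 67.0, 28.5, 49.8 and 45.1, and its ST signals were 24.9, 41.6, 25.3 and 23.5. This probe set was 19.6-fold higher in RT than in ST (4.29 ± 0.35, adjusted p = 3.06e-06), while its SV and ST arrays overlapped. Each SV and ST signal was below the median signal of its own array (65.78–96.52), so the size of this fold change is uncertain. Where on the transcripts each probe set lies was not analysed here.

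**Figure D2:**
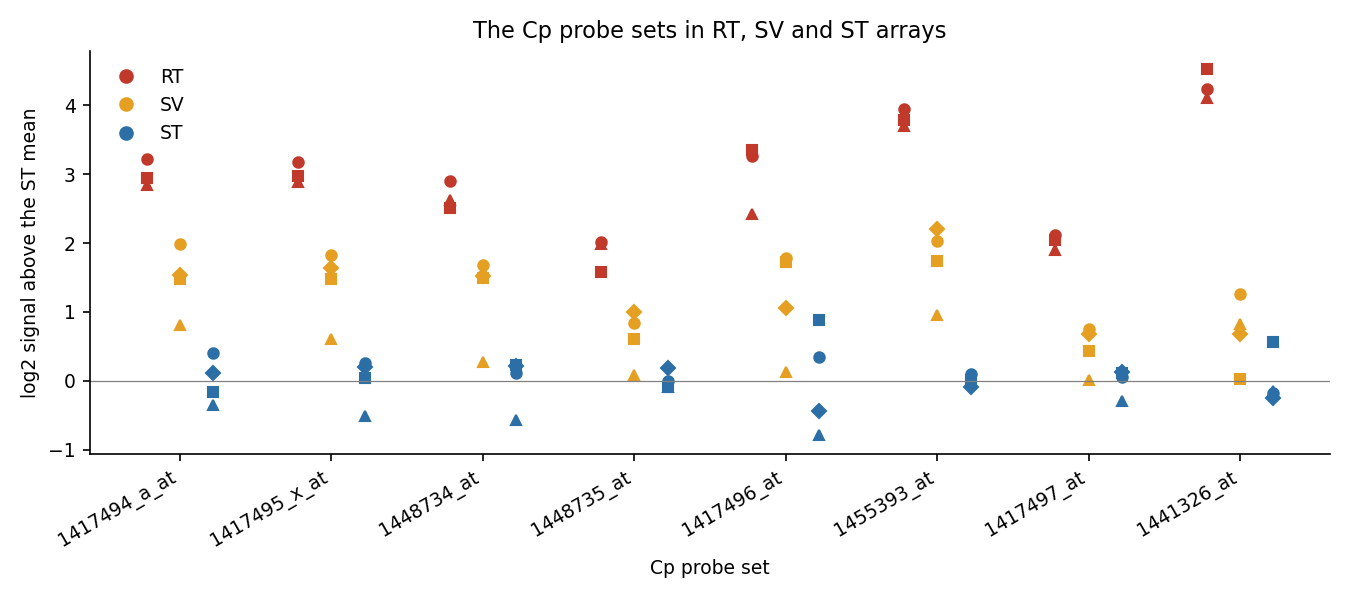
Log2 signal of the 8 Cp probe sets in each array, less the mean of the 4 ST arrays of that probe set (vertical axis, log2 units); colour gives the region and marker shape the replicate number. RT arrays are highest for all 8 probe sets. The SV arrays lie between RT and ST without overlap for the 4 probe sets called in SV against ST, and they overlap ST for the other 4. For the dimmest probe set (last on the horizontal axis) the SV arrays lie near ST.

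Clu, for the secreted chaperone clusterin, differed little between regions. Its signal was 26769, 20298 and 26988 in RT. SV arrays had 33604, 30377, 33781 and 27250.4, and ST arrays had 39309, 35499.7, 32251 and 28989.8. Most of these values were close to the brightest signal of their array, which was 25072 to 42175. In RT replicates 1 and 2 they were further below it (brightest signals of 36749 and 25072). Whether the range of the scanner limited the signals of Clu, or the bright signals of Cst12 and Aard given below, was not tested. Clu in RT was below ST without overlap, by a log2 fold change of -0.47 ± 0.16 (limma adjusted p = 0.0496, 95% confidence interval -0.81 to -0.12), which is under 2-fold. Without RT replicate 2 the value was -0.33 and the adjusted p was 0.233. SV and ST overlapped (-0.12 ± 0.15, adjusted p = 0.834, 95% interval -0.44 to 0.20). The 4 Clu probe sets gave -0.47 to -0.55 in RT against ST, with adjusted p from 0.0121 to 0.0496. The RT value was -0.68 within replicates 1 and 2 and -0.18 within replicates 3 and 4.

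Shbg encodes the extracellular carrier of androgens and estrogens. Its signal was 297, 329 and 979 in RT. The 4 SV arrays had 1648, 2028, 3510.4 and 2712, and the 4 ST arrays had 3781, 3012, 3736 and 3920.1. RT lay below every array of the other regions, and SV overlapped ST. Shbg was 7.86-fold lower in RT than in ST (log2 fold change -2.97 ± 0.35, adjusted p = 4.32e-05) and 5.19-fold lower in RT than in SV (SV against RT 2.38 ± 0.35, adjusted p = 8.12e-04). SV against ST was not past the threshold (-0.60 ± 0.33, adjusted p = 0.486). RT replicate 3 was brighter than the other RT arrays, and the RT value was -3.43 within replicates 1 and 2 and -1.97 within replicates 3 and 4. In replicates 1 and 2 alone SV against ST gave -0.88 (log2, adjusted p = 0.0173), under 2-fold.

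The cystatin genes were lower in RT together. Cst9 had a signal of 1258, 3069 and 5544 in RT. It was 8925, 11578, 15990.1 and 10377 in the SV arrays and 19459, 17121, 15913 and 14997 in the ST arrays. RT was below all other arrays, and 1 SV array (replicate 3) reached into the ST range. For RT against ST, Cst9 had a log2 fold change of -2.60 ± 0.37 (6.05-fold lower, adjusted p = 1.64e-04), in SV against RT 2.04 ± 0.37 (adjusted p = 0.00246) and in SV against ST -0.55 ± 0.34 (adjusted p = 0.553). The first of these was -3.22 within replicates 1 and 2 and -1.48 within replicates 3 and 4.

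Cst12 followed the same order with a smaller difference. Its signal was 6644, 9537 and 13929 in RT. SV pools reached 24362, 23852, 27304 and 21370.2, and ST pools 33285, 28779.9, 25916 and 24453. RT was again lowest, with SV and ST overlapping. Cst12 was 2.91-fold lower in RT than in ST (-1.54 ± 0.21, adjusted p = 1.40e-04) and 2.52-fold lower than in SV (SV against RT 1.33 ± 0.21, adjusted p = 0.00125), and SV differed from ST by -0.21 ± 0.20 (adjusted p = 0.751, 95% interval -0.64 to 0.22). The RT value was -1.96 within replicates 1 and 2 and -0.85 within replicates 3 and 4, where it was not past the threshold (adjusted p = 0.104).

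Both genes lie in the cystatin cluster of chromosome 2, where the RefSeq order is Cst11, Cstdc1, Cst12, Cst8, Cst13, Cst9, Cstdc2, Cst3 and Cst10. Among these neighbours, Cst3, which encodes the widely made cystatin C, had a mean signal of 16792 (RT), 17122 (SV) and 16530 (ST), with a log2 fold change of 0.03 in RT against ST (adjusted p = 0.909). The cystatin-like gene Cstdc1, chosen after its values were seen, had signals of 1363 ± 994 (RT), 7583 ± 1533 (SV) and 6687 ± 727 (ST; mean ± SD). It was lower in RT than in ST (log2 fold change -2.54, adjusted p = 1.06e-04) and differed from ST in SV by 0.17 (adjusted p = 0.901). Cst11 (-0.76, adjusted p = 0.315), Cst13 (-0.29, adjusted p = 0.851), Cstdc2 (-0.35, adjusted p = 0.556) and Cst10 (-0.90, adjusted p = 0.512) were not called in RT. The mean signals of Cst11 (17.65 in RT and 29.26 in ST), Cst13 (22.8 and 25.94) and Cst10 (3.89 and 8.30) were below the array medians of 65.78–110.4. A lower level in RT could therefore not be judged for Cst11, Cst13 and Cst10. Cst8 was not analysed here. Of 11 measured genes in a list of the other cystatin family genes, 0 were called in RT against ST by limma. Their median log2 fold change was -0.20. The unadjusted limma p was under 0.05 for 1 higher and 1 lower gene, and the methods' t-test with over 2-fold gave 1 higher. In this list Cst6, Cst7 and Hrg also had mean signals below the array medians in every region, as had Cst10, Cst11 and Cst13.

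Among the leading probe sets, Tsx had the largest fold change in RT against ST when all arrays were used. Its signal was 525, 1421 and 2272 in RT. In the SV arrays it was 4855, 6885, 10825 and 6271, and the ST arrays had 14128, 13579, 12382 and 10673. The RT arrays did not overlap with SV or ST, and SV replicate 3 alone lay within the ST range. Tsx was 10.6-fold lower in RT than in ST (-3.40 ± 0.39, adjusted p = 2.94e-05), or -2.81 without RT replicate 1. In SV it was 5.79-fold higher than in RT (2.53 ± 0.39, adjusted p = 9.29e-04), or 1.94 (log2) without RT replicate 1. SV against ST gave -0.87 ± 0.36 (unadjusted p = 0.0297, limma adjusted p = 0.296, 95% interval -1.64 to -0.10), which was not past the threshold. The RT value was -4.00 within replicates 1 and 2 and -2.34 within replicates 3 and 4.

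Aard had the smallest difference among the 6 lower genes. Its signal was 9375, 9670.4 and 12469 in RT. The SV values were 20685, 20908, 21787 and 15607, and the ST values were 26736, 26558, 21283 and 18493. RT was lowest without overlap. Aard was 2.21-fold lower in RT than in ST (-1.14 ± 0.18, adjusted p = 3.55e-04), and just under 2-fold lower after quantile normalization (-0.998). In SV against RT Aard gave 0.91 ± 0.18 (adjusted p = 0.00424), under 2-fold. It passed 2-fold when RT replicate 3 (1.04) or SV replicate 4 (1.02) was left out. SV and ST overlapped (-0.23 ± 0.17, adjusted p = 0.637). The RT value was -1.49 within replicates 1 and 2 and -0.67 within replicates 3 and 4 (adjusted p = 0.216).

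Mro, the last of the lower genes, varied most between the pools of each region, with coefficients of variation of 75.0% (RT), 40.8% (SV) and 34.6% (ST). Its signal was 166, 224 and 637 in RT. SV gave 777, 1073, 1996 and 1247, and ST gave 1138, 1078, 2199 and 1758. Arrays of replicate 3 were the brightest in each region, and RT stayed below SV and ST. Mro was 5.14-fold lower in RT than in ST (-2.36 ± 0.42, adjusted p = 9.90e-04) and 4.18-fold lower than in SV (SV against RT 2.06 ± 0.42, adjusted p = 0.00561), and SV against ST gave -0.30 ± 0.39 (adjusted p = 0.843). The RT value was -2.52 within replicates 1 and 2 and -1.63 within replicates 3 and 4.

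**Figure D3:**
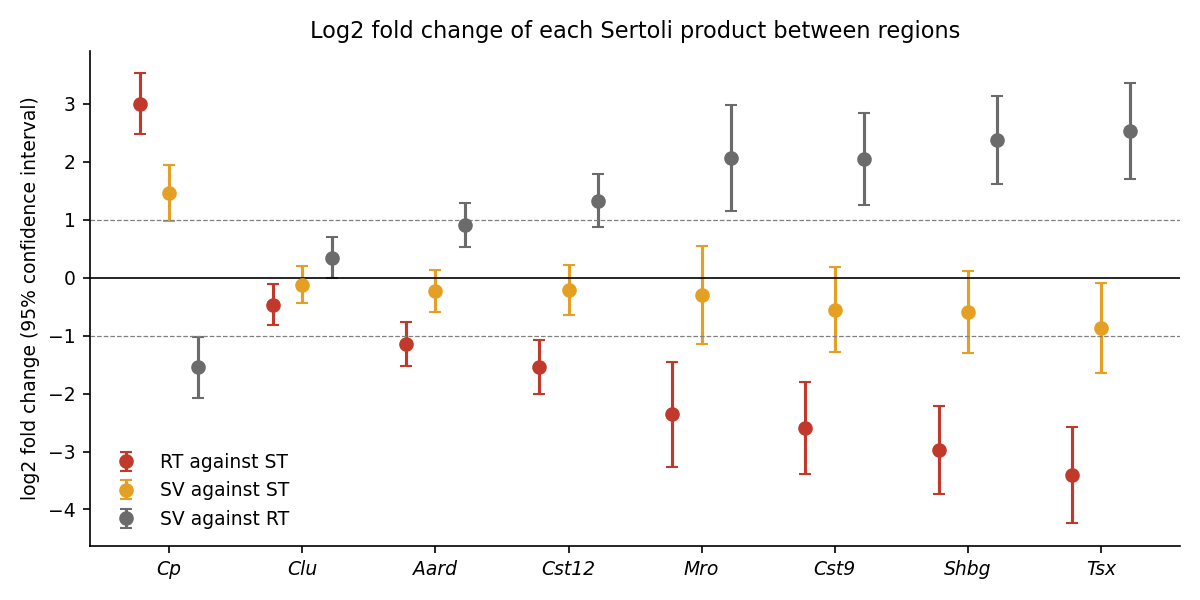
Log2 fold change (vertical axis) of the leading probe set of each member with its 95% confidence interval (vertical bars). Colours give RT against ST, SV against ST and SV against RT, and dashed lines mark 2-fold. The Cp estimates lie above the upper dashed line in both comparisons with ST. In RT against ST 6 genes lie below -1, and their SV against ST estimates lie between -0.87 and -0.21.

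Set side by side, the order of the levels was ST, SV and RT for 7 members by their means and the reverse for Cp. Between the neighbours ST and SV 1 of 8 members was called (Cp) and the arrays of the other 7 overlapped, although the unadjusted 95% interval of Tsx did not reach 0 (-1.64 to -0.10). SV and RT differed past the threshold in 6 of 8 (all but Clu and Aard). Placing the ST mean at 0% and the RT mean at 100% on the linear scale, SV lay at 26.1 ± 12.8% of the way for Cp, 21.5 ± 13.5% for Cst12, 22.5 ± 43.3% for Mro and 27.6 ± 21.9% for Aard (mean ± SD over 4 SV arrays). It lay at 37.0 ± 26.6% for Shbg, 38.0 ± 22.4% for Cst9 and 48.6 ± 22.7% for Tsx. These spreads overlap, so the members were not separated by this measure. For the dimmest Cp probe set SV lay at 3.58 ± 3.02% of the way, below the other 7 Cp probe sets (13.2–27.6%).

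The members also varied together among the arrays of RT and among those of SV. For the 6 genes that were lower in RT, replicate 3 was the brightest and replicate 1 the dimmest of the 3 RT arrays in 6 of 6 genes. In SV, replicate 3 was the brightest in 6 of 6 and replicate 1 the dimmest in 4 of 6. ST had another order, with replicate 1 the brightest in 4 of 6 and replicate 4 the dimmest in 4 of 6. The leading probe set of Cp had replicate 1 brightest and replicate 3 dimmest in RT, SV and ST. This order was opposite to that of the 6 genes in RT and of 4 of the 6 in SV. In ST, Cp shared its brightest array, replicate 1, with 4 of the 6 genes. Not all other Cp probe sets had this order. The marker lists moved in the same arrays. Relative to its ST mean, the median of the Sertoli identity list was -1.66, -1.78 and -1.03 in RT replicates 1 to 3 and -0.81, -0.40, -0.11 and -0.58 in SV replicates 1 to 4 (log2), and that of the rete list was 6.64, 6.34 and 5.46 in RT and 4.13, 3.13, 2.46 and 3.39 in SV. Efferent duct markers had medians of 4.09, 4.35 and 0.63 in RT. The part of these differences between pools in the members' values was not tested.

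Compared with the Sertoli identity list in the same RT arrays, the members spread widely. Tsx was below the list median by -2.92 to -1.37 (log2), Cst9 by -2.08 to -0.57, Shbg by -1.93 to -0.85 and Mro by -1.49 to -0.18. Cst12 was near the median (-0.41 to 0.23). Aard (0.14 to 0.53) and Clu (0.70 to 1.33) lay above it, and Cp lay 3.87 to 4.89 above it. In SV the same differences were between -0.57 and 0.80 for the 7 members other than Cp, which lay 0.93 to 2.80 above. These are descriptions over 3 RT and 4 SV arrays, with no test.

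**Figure D4:**
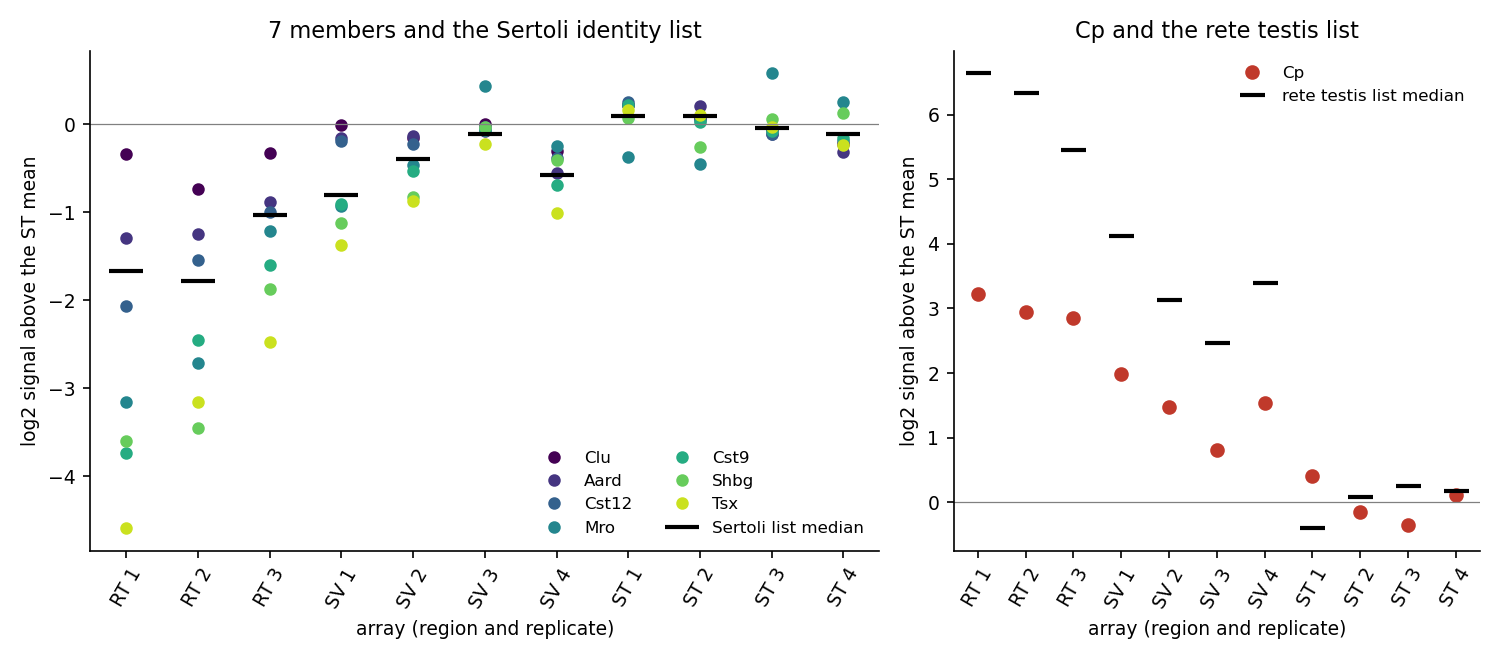
Log2 signal less the ST mean (vertical axis) in each of the 11 arrays, for 7 members with the median of the Sertoli identity list (left) and for Cp with the median of the rete testis list (right, on its own axis). In RT, Tsx, Shbg, Cst9 and Mro lie below the Sertoli list median in each of the 3 arrays, and Cp is 2.85 to 3.22 above its ST mean.

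Across the 11 arrays, Cst9 and Tsx had a Pearson r of 0.994 in log2 signal (0.987 after region means were removed), Cst9 and Cst12 0.984 (0.930) and Shbg and Mro 0.970 (0.917). Among 11591 genes above the median signal, those most like Cp were Creb3l2 (r = 0.996), Cdkn2c (0.996) and Rab19 (0.994). Those most like Tsx were Hdac6 (0.995), Zfp536 (0.995) and Cst9 (0.994), and those most like Cst9 were Tsx, Reep1 (0.993) and Pgm3 (0.992). For Shbg they were Cyb5r1, Racgap1 and Pdia5 (0.997–0.998), for Mro Nabp1, Arap2 and Ttyh1 (0.991–0.996), and for Cst12 Tmem184a, Sin3b and Zdhhc2 (0.991–0.992). For Aard they were Rap1b, 1700011M02Rik and N4bp2l1 (0.982–0.987). Clu had lower values, with Abhd4, Ccz1 and Scd2 (0.954–0.975). These correlations are descriptions over arrays of 3 regions, which share the contrast between the regions.

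Genes of the same processes, from lists that leave out the members, are given as counts. Of 14 other secreted products of Sertoli cells, 2 were higher and 1 was lower in RT than in ST, with a median log2 fold change of -0.11. The protease gene Plat (tissue plasminogen activator; 1.42, adjusted p = 2.32e-05) and Igfbp2 (1.13, adjusted p = 0.0311) were higher, and the serpin gene Serpina5 was lower (-1.28, adjusted p = 8.55e-05). In SV against ST the protease inhibitor genes A2m (1.97, adjusted p = 0.00281) and Timp1 (1.11, adjusted p = 0.00136) were higher and 0 of 14 were lower (2 at an unadjusted limma p under 0.05, and 0 by the methods' t-test with over 2-fold). Timp1 exceeded RT as well (SV against RT 1.43, adjusted p = 2.33e-04), with mean signals of 841 (RT), 2247 (SV) and 1038 (ST), an order not seen in any of the 8 members. A2m was likewise highest in SV (315, against 146 in RT and 81.1 in ST). Igfbp3 had a log2 fold change of -0.998 in SV against ST (adjusted p = 0.0037), just under 2-fold.

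On the iron side, 1 of 13 genes was called in RT. Slc11a2, the iron importer of endosomes, was lower in RT than in ST (-2.04, adjusted p = 1.36e-04) and SV exceeded RT (1.51, adjusted p = 0.00308). The transferrin receptor gene Tfrc (-0.43, adjusted p = 0.0804) and the iron exporter gene Slc40a1 (-0.53, adjusted p = 0.0212, under 2-fold) were not called. On the copper side, 2 of 12 genes were called in RT. Heph, which encodes hephaestin, a membrane-bound relative of ceruloplasmin, was higher in RT (mean signal 875 against 247 in ST, 1.85, adjusted p = 0.00127), as was Cp. The copper importer gene Slc31a1 was lower (-1.28, adjusted p = 2.08e-04). Between SV and ST, 0 of the 13 iron genes and 0 of the 12 copper genes were called by limma, the methods' t-test called 0 with over 2-fold, and at an unadjusted limma p under 0.05 there were 1 higher and 1 lower iron genes and 3 higher and 1 lower copper genes.

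Of 9 measured receptors for the carried cargo, 4 were higher and 1 was lower in RT than in ST. Lrp2 encodes megalin, an endocytic receptor that binds clusterin and SHBG, and had a mean signal of 503 (RT), 46.9 (SV) and 22.5 (ST; RT against ST 4.26, adjusted p = 7.51e-04). The SV and ST means of Lrp2 were below the medians of those arrays (65.78–96.52), so the size of its fold change is uncertain. Vldlr was higher in RT (3.62, adjusted p = 6.57e-07) and in SV (2.41, adjusted p = 7.12e-05) than in ST. The estrogen receptor gene Esr1 (1.37, adjusted p = 0.00775) and Lrp1 (1.05, adjusted p = 1.94e-05) were higher in RT. Lrp8, a receptor gene of the same family, was lower in RT (-3.03, adjusted p = 4.03e-06) and SV exceeded RT (2.62, adjusted p = 1.59e-04).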

How the data were processed

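RNA was extracted with the RNeasy Micro Kit and labelled (GeneChip 3′ IVT Plus), and hybridised to Affymetrix Mouse Genome 430 2.0 arrays. The deposited values are MAS5.0 signals, intensities on a linear scale that the authors scaled per array before deposit (mean 500.0 without the outer 2% of values at each end). Probe sets were named from the platform annotation: 34958 had 1 gene symbol, 932 several and 9211 none. Trf shared its probe set. The fit used limma 3.58.1 under R 4.3.3 (linear models, empirical Bayes moderation with a mean-variance trend) on the log2 signals of all 11 arrays, with no filter and no added constant. Benjamini-Hochberg adjustment ran over 45101 probe sets. A call needed an adjusted p under 0.05 and over 2-fold. Errors are limma standard errors or SD over arrays. The number of pools limits the precision. The limma p-values set each difference against the spread between pools, moderated over all probe sets, and the main fit treats the arrays as independent.

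Members and gene lists were chosen with earlier results of these data known. Named genes are the members, up to 4 called genes per pathway list with the largest change, and the 3 genes most correlated with each member. Other genes of a list and further cystatin genes were named after their values were seen. List members are described by counts, with no test of the list.

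Alternatives were the methods' t-test, a fit of 2 regions only, quantile normalization, median centring, an added constant or a floor of 32, no dim probe sets, moderation without the trend, the replicate block, the 2 replicate sets as a block or each alone, the mean of a member's probe sets, a fit on leading probe sets only, no fold threshold and dropping each array in turn. Plots were made in Python 3.11.15 (matplotlib 3.10.9).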

Additional observations from a re-analysis of the deposited data

Results flagged for a closer look

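Aard in SV replicate 4 stood apart from the other SV arrays, with a signal of 15607 against 20685, 20908 and 21787. The gap to its nearest neighbour on the log2 scale was 0.844 of the whole range of the 4 arrays, above Dixon's 95% critical value. Of 16 groups of 4 arrays examined, this was 1, and chance gives about 1 in 20. Without this array Aard was 1.02 higher in SV than in RT (log2), past 2-fold.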

How the results depend on the processing

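Of 648 member values under alternative settings, 624 stayed on the same side of the threshold, 17 lost a call and 7 gained one. The sign was kept in all but Clu in SV against ST, which was not called (0.01 after quantile normalization and -0.12 without it). With the methods' t-test after adjustment, 0 members were called higher in SV than in ST, 0 higher in SV than in RT and 0 lower in SV than in RT; without adjustment these were 1, 5 and 1. With replicates 3 and 4 only, which leaves 1 RT array whose spread is assumed to be that of the other regions, the counts were 0, 0 and 0, and 0 members differed over the 3 regions. Leaving out each array gave 1–1 higher and 6–6 lower members in RT against ST, 1–1 higher and 0–0 lower in SV against ST, 5–6 higher and 1–1 lower in SV against RT, and 7–7 that differed over the regions. The sixth was Aard, without RT replicate 3 (1.04, log2) or without SV replicate 4 (1.02). Replicate numbers recur in each region, and the labels do not say what a number shares. After region means were removed, same-numbered arrays of different regions correlated at 0.0692–0.190 over all probe sets (over 0.1 in 7 of 10 pairs) and 0.277–0.670 over the brighter ones. Arrays of another number within the same replicate set correlated at 0.0698–0.178 and 0.168–0.477, ranges that overlap with these. Between replicates 1 and 2 and replicates 3 and 4 the values were -0.179 to -0.0761 and -0.580 to -0.276. Of 11 arrays, 10 correlated best with their own number, which is a hint from the data and not from the design. The replicate block gave 1.02 for Aard in SV against RT (adjusted p = 2.43e-04, past 2-fold) and changed no other call of a member. Median centring gave 1.23 and replicates 1 and 2 alone 1.13 for the same value. All RT arrays but 1 belong to replicates 1 and 2, so the size of the RT differences rests mostly on that set. The cause of these changes was not tested.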

Other observations

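The probe set annotated to both Trf (transferrin) and its neighbour Srprb could be assigned to neither gene. Its signal was 2621, 2880.0 and 3372 in RT, 3701, 3289, 2067 and 3488 in SV, and 2182, 2181, 1366 and 2001 in ST. For RT against ST its log2 fold change was 0.63 ± 0.21 (limma adjusted p = 0.0451, under 2-fold), for SV against ST it was 0.69 ± 0.20 (adjusted p = 0.104), and for SV against RT it was 0.06 (adjusted p = 0.907). RT and ST did not overlap, with ST lower.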
